A study of Mus musculus with 12 samples.

Results

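The 60 genes described here encode the initiation and elongation factors of cytoplasmic protein synthesis in mouse myelin, together with enzymes and binding proteins that act on them. They were taken by symbol from a table of 21937 genes. Every symbol made of Eif and a digit, or starting with Eef1 or Eef2, was included, apart from the genes Eif2b1 to Eif2b5, so the rule reads symbols alone. Of the 60 genes, 45 encode factor subunits. The other 15 are 4 kinases of eIF2, 4 proteins that inhibit or carry the cap-binding protein eIF4E, the eEF2 kinase Eef2k, the genes Eif1ad and Eef1e1, which share only a name or a domain with the factors, and 4 Argonaute genes that the table lists under their older symbols Eif2c1 to Eif2c4.

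In initiation, eIF2 brings the initiator tRNA to the small ribosomal subunit, eIF3 holds the resulting complex together, and the cap-binding protein eIF4E, the scaffold eIF4G and the helicase eIF4A attach it to the capped end of the messenger RNA. In elongation, eEF1A delivers each charged tRNA to the ribosome, the eEF1B proteins reload eEF1A with GTP, and eEF2 moves the ribosome along the messenger. Oligodendrocytes carry some messengers far into their processes and translate them beside the growing membrane, which makes the factor messengers of purified myelin of interest.

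Myelin, a light membrane fraction, had been purified from the brains of untreated wild-type mice aged 18 days (P18, for postnatal day 18), 75 days (P75), 6 months or 24 months, and its total RNA was sequenced in 3 libraries per age, 12 in all. The study's methods give male c57Bl6/N animals for every age. The value of a gene is its normalized read count, the number of reads on the gene divided by the size factor of the library, and it is not corrected for transcript length. For 6 months the study describes individual brains, whereas for the other ages the sources used here do not say what a replicate is, so the p-values measure the spread between libraries, which may in part be technical.

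The libraries held 20299052 to 27214385 reads on genes. Replicate 3 of P18 stood apart from its group: the factors lay a median of 0.187 (log2) from the mean of the other P18 libraries, against 0.132 and 0.109 for replicates 1 and 2, and 18 of 59 factors differed by over 1.2-fold. Among the defining genes of the tissue, the 9 oligodendrocyte and myelin markers summed to 351804 to 628346 counts per library at P18 and to 197126 to 335005 at the later ages. Of these 9 markers, 7 fell from P18 to P75, against 22.9% of all genes. The 12 neuron markers summed to 199720 to 259730 over all libraries and the 9 microglia markers to 5179 to 6062 at P18 and 13146 to 15918 at 24 months. Of 5 red blood cell markers, 4 were listed at 0 in all libraries. The other, Alas2, had 362 to 472 counts at P18 and 29.2 to 57.7 at the later ages (P18 to P75 log2 -3.30, limma adjusted p = 4.55e-08). Its part in the comparisons with P18 was not tested. A fraction of this kind holds RNA of more than 1 cell type, and fewer cells of a type and less RNA per cell cannot be told apart.

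The paralogs Eef1a1 and Eef1a2 both encode eEF1A, and textbooks describe Eef1a1 as the form of most tissues and Eef1a2 as the form of neurons and muscle. Eef1a1 lies on chromosome 9 from 78326256 to 78336958 on the minus strand, with 5 merged exons, and Eef1a2 on chromosome 2 from 180882358 to 180891719 on the minus strand, with 8 merged exons, in the GENCODE annotation of NCBIM37, the assembly that is also called mm9. Because the account of the pair rests on telling their reads apart, the first 120 coding bases of both are shown, from chr9:78328342-78328461 for Eef1a1 and from chr2:180889992-180890111 for Eef1a2, each read from the minus strand. The capitals mark the 18 bases at which they differ.
Eef1a1: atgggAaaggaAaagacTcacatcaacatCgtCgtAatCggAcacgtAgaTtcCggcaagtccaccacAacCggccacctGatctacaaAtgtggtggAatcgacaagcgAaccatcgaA
Eef1a2: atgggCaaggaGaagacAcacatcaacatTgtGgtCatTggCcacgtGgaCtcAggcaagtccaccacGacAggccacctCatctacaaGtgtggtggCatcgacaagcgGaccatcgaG
Over 1389 aligned coding bases 80.1% were identical, the longest identical run was 23 bases, and 0 of the 50-base windows of one coding sequence occurred in the other. Copies elsewhere are a different matter. Of the 50-base windows in the longest coding transcript of Eef1a1, 72.6% also occurred at another place in the genome, as in its many processed copies. For Eef1a2 it was 0%. How the counting treated reads with several matches is not given in the sources used here.

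Eef1a1 was the most abundant factor at every age and ranked 8 of all genes by its mean over the 12 libraries. Its counts were 94804, 100301 and 66399 at P18, 119187, 106639 and 113837 at P75, 75146, 99514 and 90244 at 6 months, then 87486, 86424 and 78590.5 at 24 months. All P75 libraries lay above all P18 and all 6-month libraries, but P18 replicate 3 was far below the other P18 libraries. The P18 to P75 difference did not pass the test (log2 fold change 0.40, SE 0.19, limma adjusted p = 0.105), nor did that from P75 to 6 months (log2 fold change -0.37, SE 0.19, limma adjusted p = 0.115), at a false discovery rate of 0.1 over the 14634 genes tested. Both differences passed with edgeR on the recovered reads (adjusted p = 0.0819 and 0.0721) and with DESeq2 (adjusted p = 0.0192 and 0.0196). Without P18 replicate 3 the first was a log2 change of 0.21 (limma adjusted p = 0.351), and without 6-month replicate 1 the second was -0.26 (limma adjusted p = 0.319).

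Eef1a2 followed another course, with counts of 10466, 12268 and 13456 at P18, 8067, 9198 and 6619 at P75, 14842, 15079.8 and 13487 at 6 months, then 9399, 9624 and 10890.4 at 24 months. The P75 libraries were the lowest and the 6-month libraries the highest, and neither overlapped with the group before or after it. Eef1a2 fell from P18 to P75 (log2 fold change -0.60, SE 0.13, limma adjusted p = 0.00114), rose to 6 months (log2 fold change 0.87, SE 0.13, limma adjusted p = 2.95e-05) and fell again to 24 months (log2 fold change -0.54, SE 0.13, limma adjusted p = 0.00906). These 3 calls held under all 16 alternatives that were tried. The smaller fall from P18 to 24 months (log2 fold change -0.27, SE 0.13, limma adjusted p = 0.0699), where the groups overlapped, was lost without 24-month replicate 1, 24-month replicate 2, P18 replicate 2 or P18 replicate 3 (limma adjusted p from 0.139 to 0.203) and on the scale of equal totals (limma adjusted p = 0.256).

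As a percentage of the summed counts of both paralogs, Eef1a2 was 9.94%, 10.9% and 16.9% at P18, 6.34%, 7.94% and 5.49% at P75, 16.5%, 13.2% and 13.0% at 6 months, then 9.70%, 10.02% and 12.2% at 24 months. The P75 libraries were below all others, whereas P18 and 24 months overlapped. The means were 12.6% ± 3.74, 6.59% ± 1.24, 14.2% ± 1.97 and 10.6% ± 1.34 (SD, n = 3). Over the 4 ages the percentage differed by an exact permutation test on the F statistic (p = 0.0179, 15400 divisions of the 12 libraries into 4 groups, smallest possible p = 6.49e-05). Without P75 replicate 1 the exact permutation p was 0.0583, and without P75 replicate 3 it was 0.0797. Counted per kilobase of merged exon the means were 14.6%, 7.78%, 16.5% and 12.5%. As a sum, which the most abundant of them weigh on most, the neuron markers were at 226204 to 259730 at P75, against 223698 to 234011 at 6 months. Of the 12, 2 were called up and 5 down from P18 to P75, 8 up and 3 down to 6 months, and 0 up and 4 down to 24 months. Among all genes 25.9% were called up and 22.9% down in the first step. In the second 31.2% were up and 29.4% down, and in the third 16.6% up and 12.7% down. Their part in the course of Eef1a2 was not tested.

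**Figure D1:**
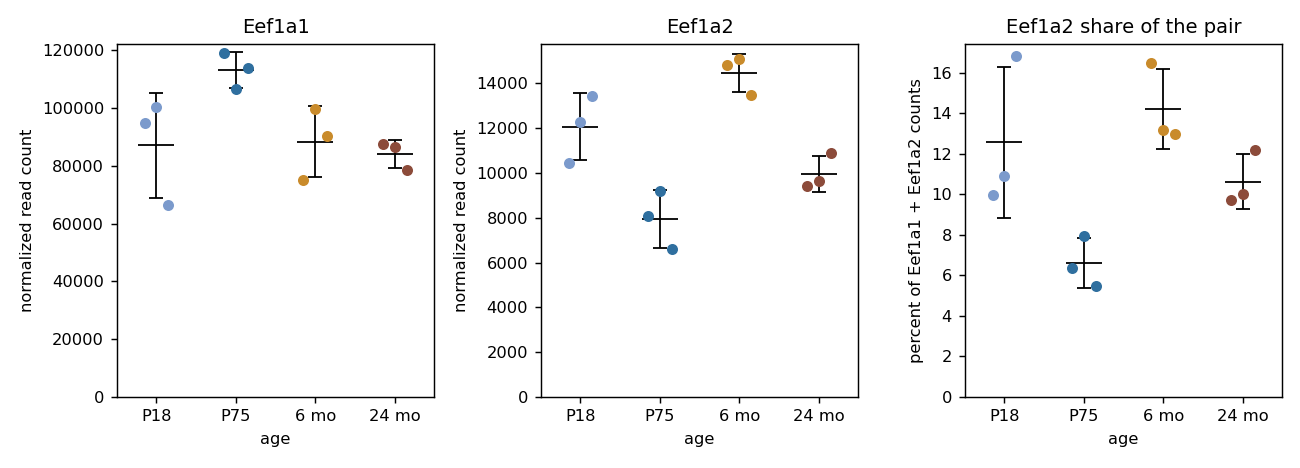
Normalized read count of Eef1a1 and of Eef1a2, and Eef1a2 as a percent of the summed counts of both, by age. Points are the 3 libraries of an age, the bar is their mean and the error bar the SD; the P75 libraries have the lowest Eef1a2 percentages, from 5.49% to 7.94%.

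Among all factors, levels spanned a wide range. At 6 months the highest counts per kilobase of merged exon were 35419.7 for Eef1a1, 9911 for Eef2, 6943 for Eef1a2 and 4683 for Eef1b2, so the elongation factors led on this scale. Eif3h followed with 3404 and Eif1 with 3343. Of the 60 genes, 42 had a mean count over 1000 and 54 were above 100 in every library. Eif4e1b, an eIF4E form of the oocyte, had 0 to 1 counts per library and was left out of the tests by the filter for a mean of at least 10, which left 59 factors. Together the 60 genes took 1.30% ± 0.044 of all counts at P18, 1.54% ± 0.020 at P75, 1.33% ± 0.046 at 6 months, then 1.25% ± 0.0076 at 24 months (SD, n = 3). The P75 libraries, at 1.52% to 1.56%, were above all others, at 1.24% to 1.37%, and Eef1a1 alone made up 31.4% to 34.4% of the sum at P75 and 23.0% to 30.9% at the other ages. As normalized counts the sums overlapped, at 288861 to 340248 at P18 and 340140 to 349740 at P75. The most abundant gene of a library took 9.47% to 20.8% of the reads at P18 and 4.76% to 7.03% at P75.

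From P18 to P75, 26 of the 59 factors changed, 9 upwards and 17 downwards (44.1%). Over all genes tested the share called was 48.8%, with 25.9% up and 22.9% down. From P75 to 6 months 35 changed, 10 up and 25 down (59.3%, against 60.6% of all genes, 31.2% up and 29.4% down). From 6 to 24 months 22 changed, 6 up and 16 down (37.3%, against 29.3% of all genes, 16.6% up and 12.7% down). Over the whole span, from P18 to 24 months, 36 changed, 7 up and 29 down (61.0%, against 69% of all genes, 34.7% up and 34.3% down). On this scale falls outnumbered rises among the factors in each comparison. The count from 6 to 24 months was 12 without replicate 1 and 13 without replicate 2 of 6 months, and 14 without replicate 1 and 11 without replicate 2 of 24 months. Over all 14634 genes, calls in this step also dropped, from 2435 up and 1852 down with every library. They were 1454 and 1024 without replicate 1 of 6 months and 1582 and 1181 without replicate 2. Without replicate 1 of 24 months they were 1739 and 1082, and without replicate 2 they were 1394 and 1098. Without P18 replicate 3 the comparisons with P18 gave 29 calls, 11 up and 18 down, at P75 and 38, 8 up and 30 down, at 24 months. Over all genes that setting gave 3911 up and 3414 down at P75, and 5103 up and 5009 down at 24 months. Consecutive comparisons share the libraries of an age, so their calls are not independent of each other.

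The changes were small. Over 2-fold, 0, 2, 0 and 1 factors were called in these comparisons, against 4.54%, 9.31%, 1.68% and 18.4% of all genes, and 51, 49, 57 and 51 of the 59 lay within 1.5-fold. The median log2 change of the factors was -0.081 from P18 to P75, -0.090 to 6 months, -0.029 to 24 months and -0.20 from P18 to 24 months, where the median of all genes was 0.015, 0.0051, 0.028 and -0.0096. For 26, 40, 32 and 33 factors the libraries of the ages compared did not overlap, which held for 47.7%, 63.1%, 43.5% and 66.6% of all genes. Of the calls, 18 of 26, 33 of 35, 9 of 22 and 23 of 36 held under every alternative in which the gene was tested. There were 16 alternatives, but 15 for Eif4ebp2 and Eif2c3, which a filter for a mean over 100 left out. Among the factors the P75 to 6 months step was thus the firmest and the 6 to 24 months step the least firm. How many calls of all genes held was not counted.

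The scale chosen for a library mattered for the first step. When the libraries were scaled to the same total instead of by size factors, the median of all genes from P18 to P75 moved from 0.015 to 0.139 and that of the factors to 0.044. The split of the 26 calls moved from 9 up and 17 down to 15 up and 11 down. Over all 14634 genes the calls moved from 3783 up and 3354 down to 4739 up and 1827 down. Relative to the median of all genes, the factors' median was -0.096 on the first scale and -0.095 on the second. These are close because such a rescaling shifts all genes of a library alike. After quantile normalization it was -0.057. On the second scale the falls of Eif1b, Eif2c1, Eif3j, Eif4g1, Eif4g2 and Eif4h were no longer called, and Eef1a1, Eif3h, Eif3k, Eif4a2, Eif4enif1 and Eif5a2 were called higher. From P18 to 24 months the split was 7 up and 19 down on that scale, where 5353 of all genes were called up and 3967 down.

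**Figure D2:**
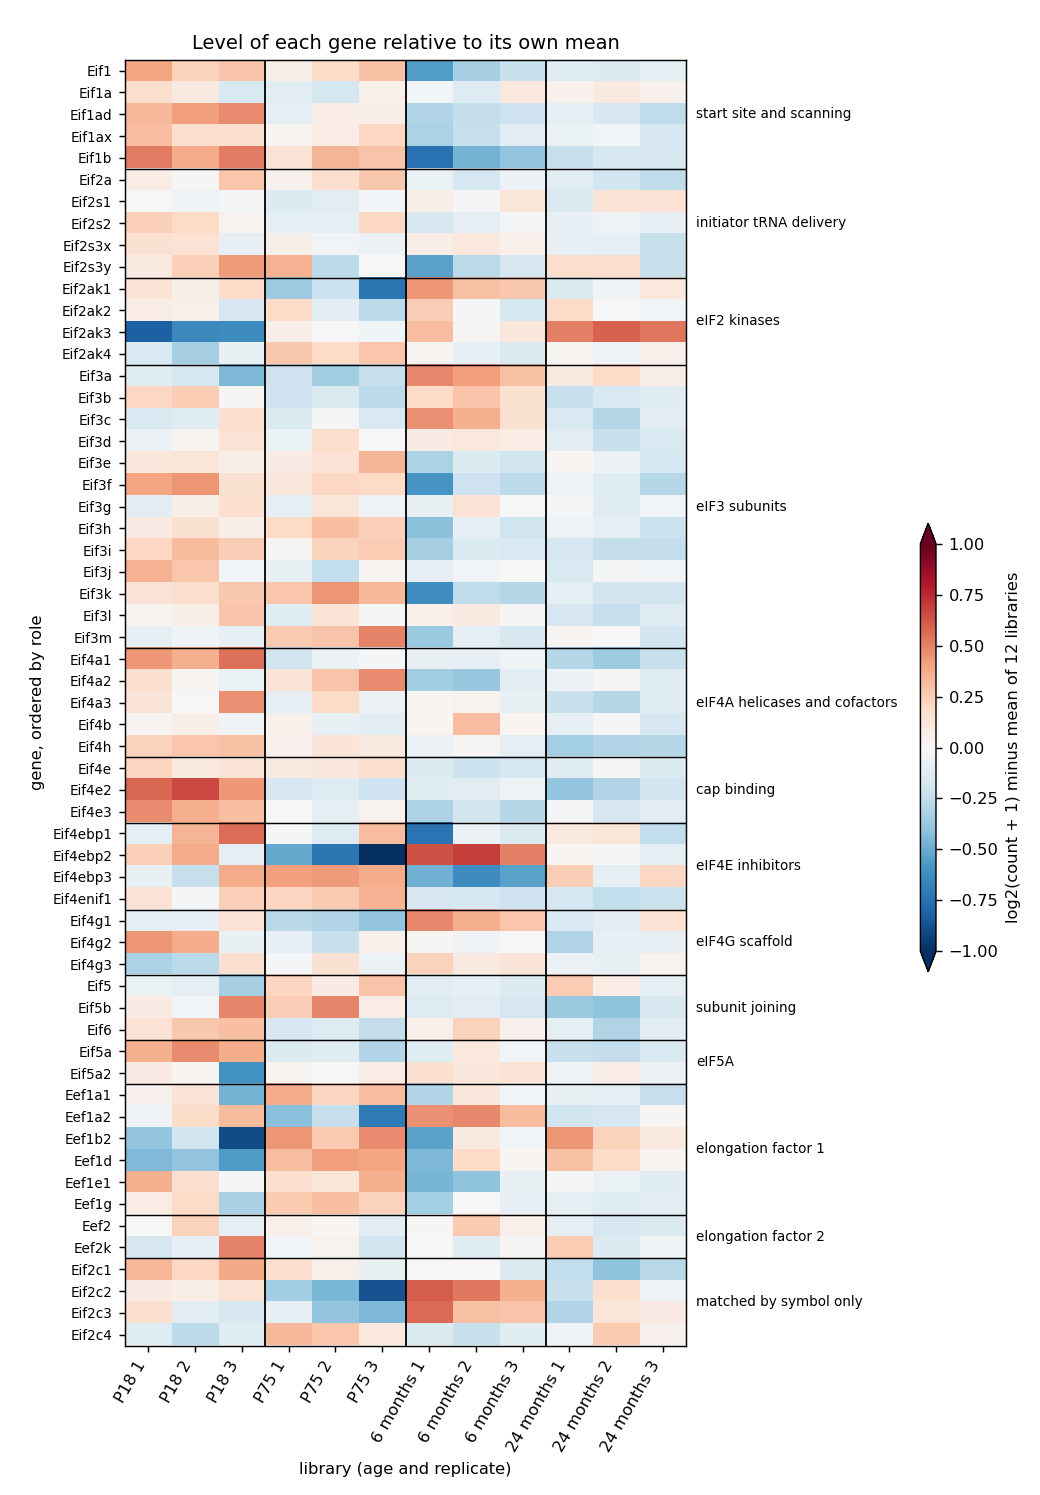
Level of the 59 tested factors in the 12 libraries, as log2(normalized read count + 1) minus the mean of the gene over all libraries; rows are genes ordered by role, columns are libraries by age and replicate. Blue rows at P18 that turn red later (Eif2ak3, Eef1d) and the opposite (Eif4e2, Eif4a1) stand beside rows that are lowest at P75 and highest at 6 months (Eif4ebp2, Eif2c2, Eef1a2).

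Over the 3 consecutive steps, 9 factors were called in each step and 11 were called in none of the 4 comparisons. The 7 factors Eef1a2, Eif2ak1, Eif2c2, Eif3b, Eif4ebp2, Eif4g1 and Eif6 fell, rose and fell again, and Eif4ebp3 alone rose, fell and rose. How many of all genes follow such courses was not counted, so these numbers have no background beside them. The first call of Eif4ebp3 and Eif4g1 and the last of Eif2ak1 and Eif6 were lost under at least 1 alternative. The 11 without a call were Eef1a1, Eef2, Eef2k, Eif1a, Eif2ak2, Eif2s1, Eif3g, Eif4b, Eif4ebp1, Eif4g3 and Eif5a2.

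**Figure D3:**
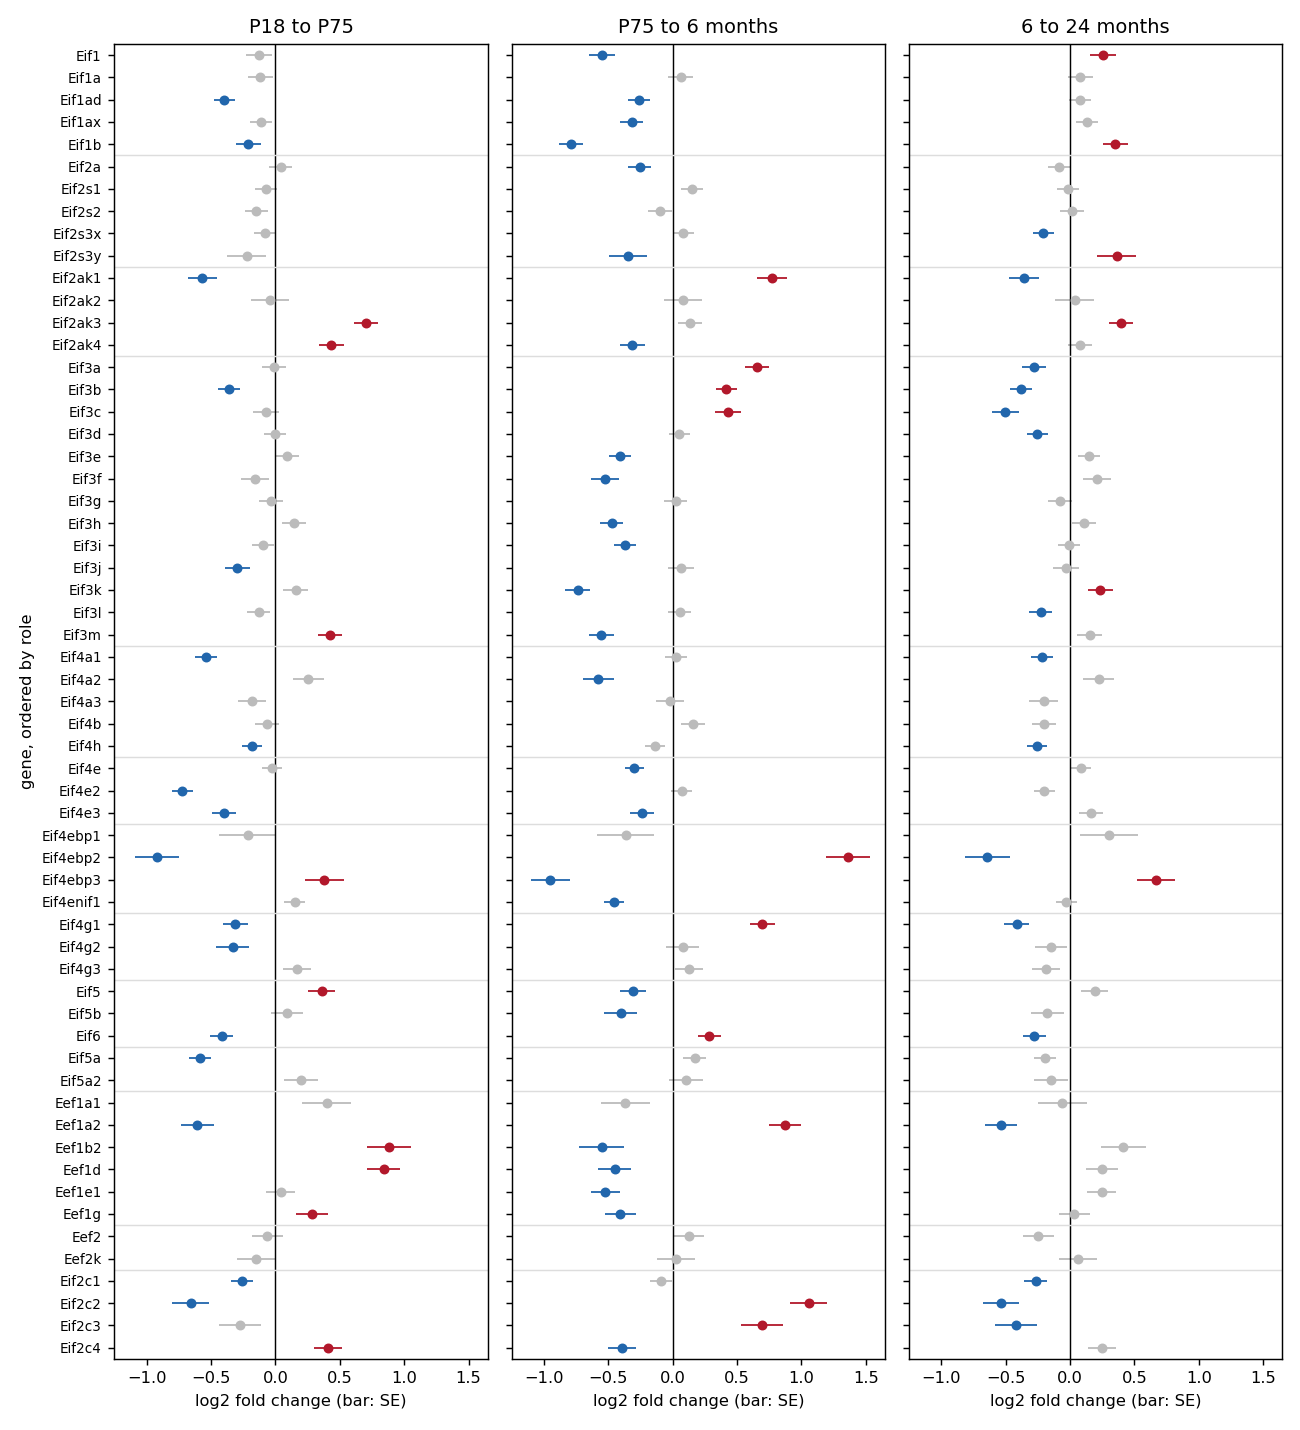
Log2 fold change of each tested factor in the 3 consecutive steps, with its standard error from limma as the bar; red points were called higher, blue points called lower and grey points not called at a false discovery rate of 0.1. From P75 to 6 months 25 points are blue and 10 are red.

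Eef1b2 and Eef1d, the eEF1B subunits that exchange the nucleotide of eEF1A, showed the largest rises of the first step. Eef1b2 (chromosome 1 from 63223399 to 63227060 on the plus strand, with 5 merged exons) had counts of 9944, 11412 and 7009 at P18, 17684, 15626 and 18025 at P75, 8993, 13825 and 12754 at 6 months, then 17626, 15276 and 13936 at 24 months. Every P75 and every 24-month library was above every P18 library, and P18 replicate 3 was the lowest of all 12. Eef1b2 rose from P18 to P75 (log2 fold change 0.88, SE 0.17, limma adjusted p = 0.000793), fell to 6 months (log2 fold change -0.55, SE 0.17, limma adjusted p = 0.0138) and was higher at 24 months than at P18 (log2 fold change 0.75, SE 0.17, limma adjusted p = 0.00135). Its 6 to 24 months difference just missed the threshold (log2 fold change 0.41, SE 0.17, limma adjusted p = 0.101).

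Eef1d (chromosome 15 from 75725226 to 75739986 on the minus strand, with 11 merged exons), another exchange subunit, had counts of 3169, 3277 and 2911 at P18, 5344, 5751 and 5672 at P75, 3164, 4945 and 4368 at 6 months, then 5283, 4926 and 4405 at 24 months. The P18 libraries were the lowest except that 6-month replicate 1 lay among them. Eef1d rose from P18 to P75 (log2 fold change 0.84, SE 0.13, limma adjusted p = 9.22e-05) and fell to 6 months (log2 fold change -0.45, SE 0.13, limma adjusted p = 0.00728), and it remained above P18 at 24 months (log2 fold change 0.64, SE 0.13, limma adjusted p = 0.000363). Eef1g, the structural subunit of eEF1B, fell from P75 to 6 months (log2 fold change -0.41, SE 0.12, limma adjusted p = 0.0108). Of the 50-base windows of Eef1g, 68.4% also occurred elsewhere in the genome. Its rise in the first step (log2 fold change 0.28, SE 0.12, limma adjusted p = 0.0745) was lost without P18 replicate 3, P75 replicate 1, P75 replicate 2 or P75 replicate 3 (limma adjusted p from 0.113 to 0.326). Eef1e1, a protein of the tRNA synthetase complex, fell in the second step only among the consecutive steps (log2 fold change -0.52, SE 0.11, limma adjusted p = 0.000997).

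Eef2, the translocase, was the second most abundant factor and was called in no comparison. Its counts were 28508, 33326 and 26573 at P18, 29426, 28774 and 26235 at P75, 28667, 34039 and 29403 at 6 months, then 26579, 25306 and 25655 at 24 months. The groups overlapped except that the 24-month libraries were all below the 6-month libraries (log2 fold change -0.24, SE 0.12, limma adjusted p = 0.166). Eef2k, the kinase that phosphorylates and inhibits eEF2, had counts of 317 to 515 and log2 changes of -0.15, 0.028 and 0.064 in the 3 steps, with no call.

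Of 5 genes grouped under start site selection, Eif1ad included, 0 rose and 2 fell from P18 to P75, 4 fell to 6 months, 2 rose to 24 months, and 4 were lower at 24 months than at P18. Among all genes 22.9% fell in the first step, 29.4% in the second and 34.3% over the whole span. Eif1b (chromosome 9 from 120401724 to 120404445 on the plus strand, with 4 merged exons), a close relative of the start codon factor Eif1, had counts of 5876, 5303 and 5836 at P18, 4529.5, 5188 and 4989 at P75, 2452, 2958 and 3122 at 6 months, then 3494, 3677 and 3673 at 24 months. The 6-month libraries were below all others and the 24-month libraries lay between them and P75. The fall from P75 to 6 months was the largest of any factor after Eif4ebp3 (log2 fold change -0.79, SE 0.096, limma adjusted p = 6.24e-06), and the rise to 24 months was partial (log2 fold change 0.35, SE 0.096, limma adjusted p = 0.0186). The fall of the first step (log2 fold change -0.21, SE 0.096, limma adjusted p = 0.0884) was lost without P18 replicate 1, P18 replicate 3, P75 replicate 1 or P75 replicate 3 (limma adjusted p from 0.123 to 0.273). The fall over the whole span held under all alternatives (log2 fold change -0.65, SE 0.096, limma adjusted p = 1.94e-05).

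Eif1 itself fell from P75 to 6 months (log2 fold change -0.55, SE 0.10, limma adjusted p = 0.000276). Its rise to 24 months (log2 fold change 0.26, SE 0.10, limma adjusted p = 0.0824) was lost without 24-month replicate 1, 24-month replicate 2, 24-month replicate 3, 6-month replicate 1 or 6-month replicate 2 (limma adjusted p from 0.135 to 0.319). Eif1b made up 33.7% ± 0.864 of the summed counts of both at P18, 32.4% ± 1.202 at P75, 28.8% ± 0.327 at 6 months, then 30.2% ± 0.664 at 24 months (SD, n = 3). For Eif1, 57.9% of the 50-base windows have a copy elsewhere in the genome. Eif1ax, which helps the ribosome to scan, fell from P75 to 6 months (log2 fold change -0.32, SE 0.086, limma adjusted p = 0.00507), whereas its paralog Eif1a was not called (log2 change 0.063). Eif1ad fell in both of the first 2 steps (log2 -0.40 and -0.26).

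The subunits of eIF2 itself changed little. Eif2s1, the subunit that the eIF2 kinases phosphorylate, was called nowhere, with counts from 1242 to 1520 over all 12 libraries. Eif2s2 was called only from P18 to 24 months (log2 fold change -0.23, SE 0.092, limma adjusted p = 0.0415), a call lost without P18 replicate 1 or P18 replicate 2 (limma adjusted p from 0.107 to 0.141). Of the X-linked and Y-linked copies of the third subunit, Eif2s3x had counts of 2509 to 3248. Of its 50-base windows 93.1% were found elsewhere in the genome. Its fall from 6 to 24 months (log2 -0.21) was lost without any 1 of the 6 libraries. Eif2s3y (chromosome Y from 346986 to 365290 on the plus strand, with 10 merged exons) had counts of 859, 948 and 1081 at P18, 1025, 673 and 801 at P75, 557, 669 and 721 at 6 months, then 909, 911 and 689 at 24 months. The ages overlapped throughout, except that the 6-month libraries lay below those of P18. Its call from P75 to 6 months (log2 fold change -0.35, SE 0.15, limma adjusted p = 0.0613) was lost without 6-month replicate 1 or P75 replicate 1 (limma adjusted p from 0.244 to 0.307). Its call to 24 months (log2 fold change 0.36, SE 0.15, limma adjusted p = 0.0963) was lost without 24-month replicate 1, 24-month replicate 2, 6-month replicate 1 or 6-month replicate 2 (limma adjusted p from 0.154 to 0.332). Eif2a, which can deliver the initiator tRNA independently of eIF2, fell from P75 to 6 months (log2 fold change -0.26, SE 0.089, limma adjusted p = 0.023).

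Of the 4 kinases that phosphorylate eIF2 under stress, 2 rose and 1 fell from P18 to P75, and 1 was called in no comparison. Among all genes 25.9% rose and 22.9% fell in that step. Eif2ak3 (PERK, the kinase of the endoplasmic reticulum; chromosome 6 from 70794509 to 70855239 on the plus strand, with 19 merged exons) had counts of 297, 333 and 338 at P18, 545, 525 and 509 at P75, 648, 527 and 565 at 6 months, then 741, 785 and 757 at 24 months. Every later library was above every P18 library, and the 24-month libraries were above all others. Eif2ak3 rose from P18 to P75 (log2 fold change 0.70, SE 0.094, limma adjusted p = 2.99e-05) and from 6 to 24 months (log2 fold change 0.40, SE 0.094, limma adjusted p = 0.00976), with no call between them (log2 fold change 0.14, SE 0.094, limma adjusted p = 0.234). It was the only factor called over 2-fold between P18 and 24 months (log2 fold change 1.24, SE 0.094, limma adjusted p = 1.30e-08), and its calls held under all alternatives. The microglia markers summed to 5179 to 6062 counts at P18 and 13146 to 15918 at 24 months. Over the same span 8 of these 9 genes rose, against 34.7% of all genes. The part of microglia in this result was not tested.

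Eif2ak1 (HRI, the haem-regulated kinase; chromosome 5 from 144578657 to 144665125 on the plus strand, with 15 merged exons) had counts of 1022, 967 and 1058 at P18, 719.5, 800.1 and 558 at P75, 1255, 1141 and 1117 at 6 months, then 842, 907 and 998 at 24 months. It was lowest at P75 and highest at 6 months, without overlap between neighbouring ages. It fell (log2 fold change -0.57, SE 0.11, limma adjusted p = 0.000912), rose (log2 fold change 0.77, SE 0.11, limma adjusted p = 3.91e-05) and fell (log2 fold change -0.36, SE 0.11, limma adjusted p = 0.0386). The last call was lost without 24-month replicate 1, 24-month replicate 2 or 6-month replicate 1 (limma adjusted p from 0.105 to 0.143). Exons of Ankrd61 and Aimp2 overlap it on the opposite strand, and whether the counting used strand is not given in the sources used here. Eif2ak4 (GCN2, the kinase of amino acid shortage) rose from P18 to P75 (log2 fold change 0.43, SE 0.095, limma adjusted p = 0.00181) and fell to 6 months (log2 fold change -0.31, SE 0.095, limma adjusted p = 0.0111). Eif2ak2 (PKR, the kinase of double-stranded RNA) had counts of 109 to 156 and no call.

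The 13 subunits of eIF3 did not move together. From P18 to P75, 1 rose and 2 fell, from P75 to 6 months 3 rose and 6 fell, from 6 to 24 months 1 rose and 5 fell, and from P18 to 24 months 1 rose and 8 fell, where 48.8%, 60.6%, 29.3% and 69% of all genes were called. Of the falls from 6 to 24 months, that of Eif3l (log2 -0.23) was lost without any 1 of the 6 libraries, and that of Eif3d (log2 -0.25) without 24-month replicate 2 or 6-month replicate 2 (limma adjusted p from 0.113 to 0.151). In the second step the large core subunits Eif3a (log2 fold change 0.66, SE 0.094, limma adjusted p = 2.92e-05), Eif3b (log2 fold change 0.42, SE 0.083, limma adjusted p = 0.00054) and Eif3c (log2 fold change 0.43, SE 0.10, limma adjusted p = 0.00229) rose. The subunits Eif3e, Eif3f, Eif3h, Eif3i, Eif3k and Eif3m fell, with log2 changes of -0.41, -0.53, -0.47, -0.37, -0.74 and -0.55. These 9 calls held under all alternatives, and Eif3d, Eif3g, Eif3j and Eif3l lay between 0.022 and 0.062.

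Eif3k (chromosome 7 from 29756392 to 29766883 on the minus strand, with 9 merged exons), a small subunit, had counts of 3914, 4035 and 4295 at P18, 4323, 4844 and 4502 at P75, 2317, 3000.2 and 2926 at 6 months, then 3353, 3138 and 3146 at 24 months. All 6-month libraries lay below all others. Its fall from P75 to 6 months was the largest in eIF3 (log2 fold change -0.74, SE 0.097, limma adjusted p = 1.34e-05). The rise to 24 months (log2 fold change 0.23, SE 0.097, limma adjusted p = 0.0968) was lost without 24-month replicate 1, 24-month replicate 2, 24-month replicate 3 or 6-month replicate 1 (limma adjusted p from 0.142 to 0.416), and with the replicate number as a block (limma adjusted p = 0.103).

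Eif3c (chromosome 7 from 133690426 to 133709880 on the minus strand, with 21 merged exons), a core subunit, had counts of 3043, 3119 and 3803 at P18, 3062, 3343 and 3043 at P75, 4651, 4329.8 and 3762 at 6 months, then 3046, 2781 and 3154 at 24 months. The 6-month libraries were above those of P75 and of 24 months, although replicate 3 of 6 months lay below replicate 3 of P18. Its fall from 6 to 24 months was the largest in eIF3 in that step (log2 fold change -0.50, SE 0.10, limma adjusted p = 0.00452). Eif3a, the largest subunit, had counts of 3724, 3593 and 2977 at P18, 3511, 3187 and 3462 at P75, 5671, 5386 and 4981 at 6 months, then 4328, 4641 and 4263 at 24 months. It was the only eIF3 gene above P18 at 24 months by the test (log2 fold change 0.37, SE 0.094, limma adjusted p = 0.00275). Its fall from 6 to 24 months (log2 fold change -0.28, SE 0.094, limma adjusted p = 0.0492) was lost without 24-month replicate 1, 24-month replicate 3, 6-month replicate 1 or 6-month replicate 2 (limma adjusted p from 0.118 to 0.166). Eif3b was at 1454 to 1724 counts at P18, 1204 to 1305 at P75, 1608 to 1763 at 6 months, then 1227 to 1330 at 24 months, and was called in all 3 steps.

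The changes from P75 to 6 months varied weakly with merged exon length, in the factors as in other genes. Spearman's rho between the log2 change and the merged exon length was 0.30 over the 58 factors with a length and 0.28 over 14362 genes, as a description across genes that share the same libraries. The 29 shorter factors had a median log2 change of -0.26 and the 29 longer ones of 0.024. From 6 to 24 months rho was -0.22 over the factors and -0.29 over all genes. The eIF3 subunits that fell have 1074 (Eif3k), 1253 (Eif3h), 1541 (Eif3e), 2590 (Eif3m), 2891 (Eif3f) and 3702 (Eif3i) bases of merged exon. Those that rose have 2883 (Eif3c), 2968 (Eif3b) and 5176 (Eif3a) bases, so the merged exon lengths of both sets overlap. The lengths of their longest coding transcripts did not overlap. By that measure those that fell have 909 (Eif3k) to 2514 (Eif3f) bases and those that rose 2881 (Eif3c) to 5176 (Eif3a). Of the subunits that were not called, Eif3g has 1075 bases by both measures. Eif3j is the longest of all, at 5830 bases of merged exon and 5413 of transcript, and 83.2% of its 50-base windows also occurred elsewhere in the genome. The part of length in these results was not tested.

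**Figure D4:**
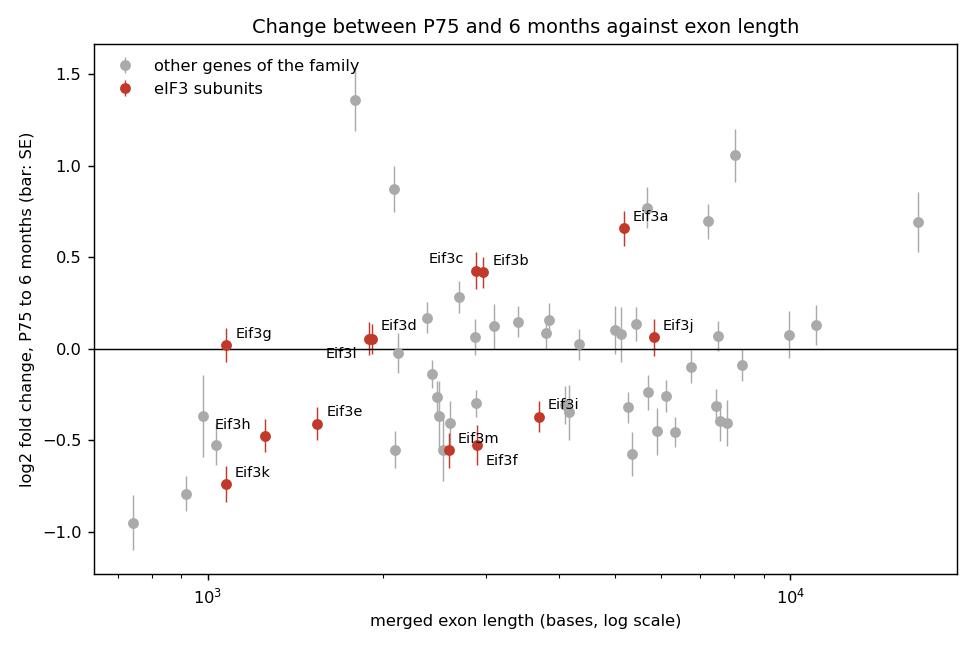
Log2 fold change from P75 to 6 months against the merged exon length of the 58 tested factors with an annotated length, on a log axis in bases; bars are standard errors from limma. Among the eIF3 subunits, in red, the shortest is Eif3k with 1074 bases and a log2 change of -0.74, the highest is Eif3a with 5176 bases and 0.66, and the longest is Eif3j with 5830 bases and 0.062.

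Of the eIF4A helicases, which unwind the leader of the messenger, Eif4a1 fell and Eif4a2 took another course. Eif4a1 (chromosome 11 from 69480438 to 69485925 on the minus strand, with 6 merged exons) had counts of 9456, 9026 and 10278 at P18, 6124, 6746 and 6905 at P75, 6664, 6618 and 6802 at 6 months, then 5749.8, 5497 and 5998 at 24 months. All P18 libraries were above all later ones. It fell from P18 to P75 (log2 fold change -0.54, SE 0.086, limma adjusted p = 0.000134) and over the whole span (log2 fold change -0.74, SE 0.086, limma adjusted p = 1.50e-06). Its call from 6 to 24 months (log2 fold change -0.22, SE 0.086, limma adjusted p = 0.0781) was lost without 24-month replicate 1, 24-month replicate 2, 6-month replicate 1, 6-month replicate 2 or 6-month replicate 3 (limma adjusted p from 0.143 to 0.239).

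Eif4a2 (chromosome 16 from 23107517 to 23114209 on the plus strand, with 6 merged exons), the form known from neurons, had counts of 23208, 21174 and 19869.7 at P18, 22692, 25374 and 28836 at P75, 16332, 15934 and 19223 at 6 months, then 19924, 20933 and 19096 at 24 months. The 6-month libraries were below all P18 and P75 libraries, and replicate 3 of 6 months lay just above the lowest 24-month library. It fell from P75 to 6 months (log2 fold change -0.58, SE 0.12, limma adjusted p = 0.000799), and its difference in the first step just missed the threshold (log2 fold change 0.26, SE 0.12, limma adjusted p = 0.101). Eif4a2 made up 69.0% ± 2.74 of the summed counts of both helicases at P18, 79.5% ± 1.05 at P75, 71.8% ± 1.76 at 6 months, then 77.6% ± 1.55 at 24 months (SD, n = 3). Of the 50-base windows 80.3% in Eif4a1 and 31.8% in Eif4a2 have a copy elsewhere, and small nucleolar RNA genes lie within annotated exons of both.

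Eif4h, a cofactor of eIF4A, fell from 6 to 24 months (log2 fold change -0.25, SE 0.077, limma adjusted p = 0.0307) and from P18 to 24 months (log2 fold change -0.57, SE 0.077, limma adjusted p = 7.22e-06), the first of these calls being lost without 6-month replicate 2 (limma adjusted p = 0.107). Its fall in the first step (log2 fold change -0.18, SE 0.077, limma adjusted p = 0.0709) was lost without P18 replicate 1, P18 replicate 2, P18 replicate 3, P75 replicate 1 or P75 replicate 3 (limma adjusted p from 0.105 to 0.18). Eif4a3, a helicase of the exon junction complex, was called only over the whole span (log2 fold change -0.41, SE 0.11, limma adjusted p = 0.00383). The cofactor Eif4b was called in no comparison, with counts from 4312 to 6002.

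The 3 cap-binding proteins that were tested were called lower at 24 months than at P18, as were 34.3% of all genes. Eif4e2 (4EHP, which binds the cap without recruiting eIF4G; chromosome 1 from 89110489 to 89137063 on the plus strand, with 10 merged exons) had counts of 1355, 1435 and 1229 at P18, 809.7, 833 and 789 at P75, 836, 841 and 876 at 6 months, then 693, 736 and 797 at 24 months. The P18 libraries stood well above all later ones, which lay close together. Its fall from P18 to P75 (log2 fold change -0.72, SE 0.083, limma adjusted p = 8.70e-06) and over the whole span (log2 fold change -0.85, SE 0.083, limma adjusted p = 2.20e-07) held under all alternatives. Eif4e itself, the cap-binding protein of eIF4F, was at 3897 to 4241 counts at P18, 3881 to 4079 at P75, 3139 to 3310 at 6 months, then 3302 to 3610 at 24 months, and fell from P75 to 6 months (log2 fold change -0.30, SE 0.075, limma adjusted p = 0.00338). Its fall over the whole span (log2 fold change -0.24, SE 0.075, limma adjusted p = 0.0106) was lost on the scale of equal totals (limma adjusted p = 0.207). Eif4e3 fell in the first step (log2 fold change -0.40, SE 0.095, limma adjusted p = 0.00329).

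The inhibitors of eIF4E held the largest rise and the largest fall of a factor between consecutive ages. Eif4ebp2 (the 4E-binding protein known from brain; chromosome 10 from 60895245 to 60915417 on the minus strand, with 3 merged exons) had counts of 74.9, 82.5 and 59.3 at P18, 44.1, 38.01 and 30.9 at P75, 99.1, 103 and 90.5 at 6 months, then 64.4, 62.7 and 59.2 at 24 months. The P75 libraries were the lowest and the 6-month libraries the highest, without overlap, and 24 months overlapped with P18. It fell from P18 to P75 (log2 fold change -0.92, SE 0.17, limma adjusted p = 0.000527), rose to 6 months (log2 fold change 1.36, SE 0.17, limma adjusted p = 9.44e-06) and fell to 24 months (log2 fold change -0.64, SE 0.17, limma adjusted p = 0.0178). The rise, at 2.57-fold in Eif4ebp2, was at levels from 30.9 to 103 counts.

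Eif4ebp3, another 4E-binding protein, had counts of 134, 121 and 184 at P18, 188, 191 and 184 at P75, 102, 91.4 and 97.3 at 6 months, then 168, 133 and 164 at 24 months. It was lowest at 6 months in all libraries and highest at P75, although P18 replicate 3 reached the P75 level. It fell from P75 to 6 months (log2 fold change -0.95, SE 0.15, limma adjusted p = 7.18e-05) and rose to 24 months (log2 fold change 0.67, SE 0.15, limma adjusted p = 0.00747). Its rise in the first step (log2 fold change 0.38, SE 0.15, limma adjusted p = 0.0522) was lost without P18 replicate 1, P18 replicate 2, P75 replicate 1 or P75 replicate 2 (limma adjusted p from 0.103 to 0.225). Of its 744 bases of merged exon, 501 are shared on the same strand with exons of Ankhd1, so its counts may hold or lack reads of that gene. Eif4ebp2 made up 33.6% ± 8.31 of the summed counts of Eif4ebp2 and Eif4ebp3 at P18, 16.7% ± 2.27 at P75, 50.2% ± 2.49 at 6 months, then 28.8% ± 2.90 at 24 months (SD, n = 3). Eif4ebp1 had 30 to 75 counts and no call. Eif4enif1, which carries eIF4E between compartments, fell from P75 to 6 months (log2 fold change -0.46, SE 0.081, limma adjusted p = 0.000214).

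**Figure D5:**
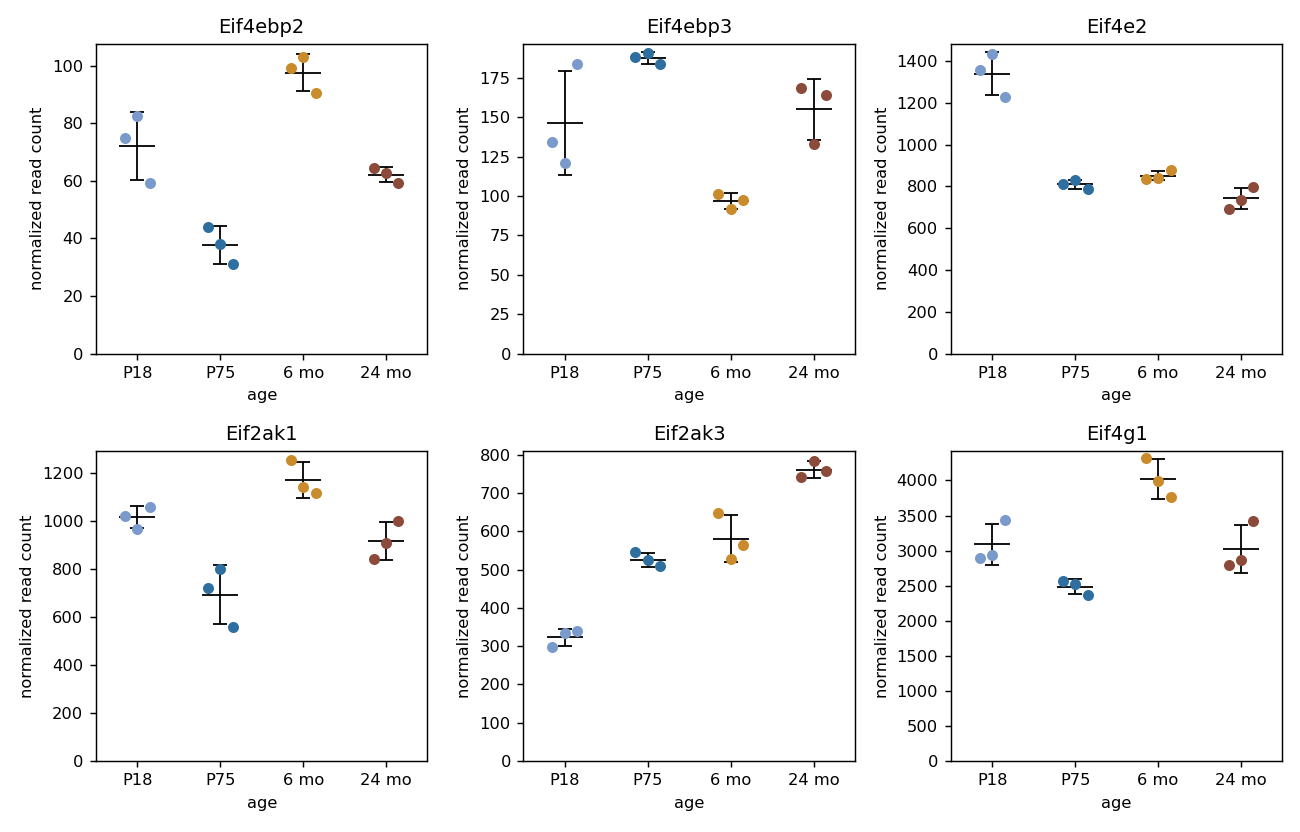
Normalized read count of 6 regulators of initiation by age, with the 3 libraries of an age as points, their mean as a bar and the SD as the error bar; each panel has its own axis from 0. Eif4ebp2, Eif2ak1 and Eif4g1 are lowest at P75 and highest at 6 months, Eif4ebp3 is lowest at 6 months, Eif4e2 is highest at P18 and Eif2ak3 is highest at 24 months.

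Of the eIF4G scaffolds, Eif4g1, the main partner of eIF4E, was at 2895 to 3430 counts at P18, 2361 to 2564 at P75, 3757 to 4320 at 6 months, then 2793 to 3419 at 24 months. The 6-month libraries were above all others and the P75 libraries below. Eif4g1 rose from P75 to 6 months (log2 fold change 0.70, SE 0.097, limma adjusted p = 2.29e-05) and fell to 24 months (log2 fold change -0.42, SE 0.097, limma adjusted p = 0.00919). Eif4g2 (DAP5, a scaffold without an eIF4E site; chromosome 7 from 118211499 to 118226544 on the minus strand, with 22 merged exons) had counts of 17343, 16532 and 12108 at P18, 12084, 10943 and 13223 at P75, 12852, 12437 and 12834 at 6 months, then 10381, 12083 and 12034 at 24 months. Replicates 1 and 2 of P18 were above all other libraries and replicate 3 was not. It fell from P18 to 24 months (log2 fold change -0.40, SE 0.13, limma adjusted p = 0.0119). Its call from P18 to P75 (log2 fold change -0.33, SE 0.13, limma adjusted p = 0.0488) was lost without P18 replicate 1, P18 replicate 2 or P75 replicate 2 (limma adjusted p from 0.159 to 0.206). Eif4g3 was called in no comparison, with counts from 2564 to 3745.

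The factors of subunit joining moved in both directions. Eif5, the activator of the eIF2 GTPase, rose from P18 to P75 (log2 fold change 0.36, SE 0.10, limma adjusted p = 0.011) and fell to 6 months (log2 fold change -0.31, SE 0.10, limma adjusted p = 0.0201). Eif5b, which joins the large ribosomal subunit, fell from P75 to 6 months (log2 fold change -0.40, SE 0.13, limma adjusted p = 0.0126). Eif6, which keeps the subunits apart, fell from P18 to P75 (log2 fold change -0.42, SE 0.087, limma adjusted p = 0.00128), rose to 6 months (log2 fold change 0.29, SE 0.087, limma adjusted p = 0.0117) and fell to 24 months (log2 fold change -0.28, SE 0.087, limma adjusted p = 0.037). The last call was lost without 24-month replicate 2 or 6-month replicate 2 (limma adjusted p from 0.152 to 0.167). Eif5a, an elongation factor that carries the modified lysine hypusine, was at 7246 to 7868 counts at P18 and 4624 to 6082 at the later ages, and fell from P18 to P75 (log2 fold change -0.59, SE 0.086, limma adjusted p = 7.14e-05). Its paralog Eif5a2 was called nowhere, with counts from 946 to 1606.

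The Argonaute genes, which bind small RNAs and are not translation factors, were caught by their older symbols. Eif2c2 (chromosome 15 from 72932055 to 73015377 on the minus strand, with 19 merged exons) had counts of 183, 181 and 191 at P18, 135, 125 and 93.97 at P75, 263, 249 and 221 at 6 months, then 148, 192 and 167 at 24 months. It was lowest at P75 and highest at 6 months, without overlap between neighbouring ages. Eif2c2 fell (log2 fold change -0.66, SE 0.14, limma adjusted p = 0.00166), rose by 2.08-fold (log2 fold change 1.06, SE 0.14, limma adjusted p = 1.78e-05) and fell (log2 fold change -0.54, SE 0.14, limma adjusted p = 0.0174). Eif2c3 rose from P75 to 6 months (log2 fold change 0.69, SE 0.16, limma adjusted p = 0.00201), Eif2c4 fell (log2 fold change -0.40, SE 0.11, limma adjusted p = 0.00547), and Eif2c1 was called in the first and the last of the 3 steps (log2 -0.26 and -0.27). The first of these calls was lost without P75 replicate 3 (limma adjusted p = 0.112) and the last without 24-month replicate 2, 6-month replicate 1 or 6-month replicate 2 (limma adjusted p from 0.131 to 0.168). With the factor subunits alone, 44 of which were tested, 17 were called from P18 to P75, 5 up and 12 down. From P75 to 6 months 25 were called, 6 up and 19 down, and from 6 to 24 months 15, 4 up and 11 down. Over the whole span 29 were called, 4 up and 25 down. Among all genes the shares called in these comparisons were 48.8%, 60.6%, 29.3% and 69%.

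Other genes of the pathway, 43 in 7 lists taken from textbook knowledge, were counted for comparison. From P18 to P75, 3 rose and 16 fell, from P75 to 6 months 14 rose and 13 fell, from 6 to 24 months 4 rose and 9 fell, and from P18 to 24 months 5 rose and 18 fell. The shares called were 44.2%, 62.8%, 30.2% and 53.5%, against 48.8%, 60.6%, 29.3% and 69% of all genes, so those of the 3 consecutive steps were near the background. Of 7 termination and rescue genes 5 fell in the first step, and 4 rose and 2 fell in the second, among them Etf1, the release factor that reads stop codons (log2 -0.32 and 0.36, limma adjusted p = 0.00978 and 0.00284). Of 3 recycling and reinitiation genes, Denr and Mcts1, which act as a pair on the small subunit, fell from P75 to 6 months (log2 -0.47 and -0.72), and Abce1, which splits ribosomes, rose (log2 0.43).

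Among 12 cap complex partners and mTOR control genes, 3 rose and 4 fell in the first step and 3 rose and 3 fell in the second. Mtor, the kinase that releases eIF4E from its inhibitors, rose from P18 to P75 (log2 0.51, limma adjusted p = 0.000872) and to 6 months (log2 0.40, limma adjusted p = 0.00344). Its counts were 2379 to 2583 at 6 months and lower, at 1904 to 2044, at 24 months. Paip1, a partner of the poly(A)-binding protein, fell from P75 to 6 months (log2 -0.86, limma adjusted p = 9.64e-07), while Pabpc1, the poly(A)-binding protein itself, rose (log2 0.44, limma adjusted p = 0.00242).

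Of 7 genes of the response to eIF2 phosphorylation, 0 rose and 2 fell from P18 to P75, 2 rose and 2 fell to 6 months, 0 rose and 1 fell to 24 months, and 2 rose and 3 fell over the whole span. Atf4, the transcription factor translated when eIF2 is phosphorylated, was lower at 24 months than at P18 (log2 -0.32, limma adjusted p = 0.00636). The phosphatase subunits that remove the phosphate went opposite ways over that span: Ppp1r15a fell (log2 -0.97, limma adjusted p = 7.73e-06) and Ppp1r15b rose (log2 0.61, limma adjusted p = 3.34e-05).

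Among 6 genes that modify the factors, Dohh, which completes hypusine on eIF5A, fell over the whole span (log2 -0.69, limma adjusted p = 4.49e-05). Dph1, which starts the diphthamide of eEF2, rose from P75 to 6 months (log2 1.46, limma adjusted p = 9.72e-06). Of 6 mitochondrial factors, 0 rose and 2 fell in the first step, 2 rose and 2 fell in the second and 0 rose and 2 fell in the third, and of 2 selenocysteine factors 1 fell in the first and 1 rose in the second. Of 10 factors listed from background knowledge as carrying a terminal oligopyrimidine tract, the sequence through which mTOR controls translation, 3 rose and 1 fell from P18 to P75, 1 rose and 6 fell to 6 months, 0 rose and 1 fell to 24 months, and 2 rose and 3 fell over the whole span. Eef1a2 was the 1 that fell, rose and fell in these steps. All 10 are among the factors already counted above. Beside the counts of these and the preceding lists stand the shares of all genes tested. From P18 to P75 25.9% rose and 22.9% fell, and to 6 months 31.2% rose and 29.4% fell. To 24 months 16.6% rose and 12.7% fell, and over the whole span 34.7% rose and 34.3% fell.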

How the data were processed

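RNA of myelin purified from mouse brain was measured by RNA-Seq in 12 libraries, 3 at each of P18, P75, 6 months and 24 months, grouped by their labels. The authors aligned reads to mm9 with TopHat2 (2.0.8 in the submitters' processing notes), used SAMtools 0.1.19, counted reads per gene with HTSeq 0.5.4p1 and divided the counts by the size factors of DESeq. This normalized read count is the signal that was deposited. It is neither divided by transcript length nor on a log scale. The gene annotation, the use of strand and the treatment of reads with several matches are not given in the sources used here, and reads of genes with near-identical copies could have been lost or shared.

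Values step by the worth of 1 read in each library. Dividing by that step gave whole reads for 100% of values (tolerance 0.0051) and so the depth.

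Genes with a mean of at least 10 were compared by empirical Bayes with a trend in limma 3.58.1, on log2(normalized read count + 1). The fit held all 12 libraries and no term but age. Calls were made at a false discovery rate of 0.1, adjusted after Benjamini and Hochberg over the 14634 genes tested. Fold changes are on the log2(count + 1) scale. Alternatives included edgeR 4.0.16 and DESeq2 1.42.0 on the recovered reads, other scalings, filters, pseudocounts, a replicate block and leaving out each library. R 4.3.3, Python 3.11.15, numpy 2.4.6, pandas 2.3.3, scipy 1.17.1, Biopython 1.88 and matplotlib 3.10.9 were used. The scripts were tested on simulated data.

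Deviations of same-numbered libraries from their group means correlated at 0.161, 0.101 and 0.187 between P75 and 6 months, and between -0.213 and 0.029 in the other comparisons, with no shared animal or batch in the labels.

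Positions, merged exon lengths and sequences come from GENCODE vM1 on NCBIM37, matched by symbol for 59 of the 60 genes (all but Eef2k) and 96.3% of the table. Each 50-base window of the longest coding transcript of these genes was searched on both strands of the genome. The members and lists were chosen with earlier results of these data known. Genes named with full values were Eef1a1, Eef1a2, in each comparison the 3 largest rises and 3 largest falls among called factors with a mean of at least 100 at 1 of the 2 ages, every called factor over 2-fold, and the 5 highest factors at 6 months. Others, among them Eif3a, whose values in all libraries are also given, are named by role, after their values were seen.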

Additional observations from a re-analysis of the deposited data

How the results depend on the processing

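No call on a factor changed direction under any alternative. The count of factors called stayed within 1.5 times its value under edgeR (26, 36, 22 and 36 in the 4 comparisons, in the order of the report), DESeq2 (28, 38, 25 and 35), other pseudocounts, filters and scalings. With the factor subunits alone it was 17 of 44 from P18 to P75, since fewer genes were counted, where 48.8% of all genes were called. Leaving out single libraries gave 23 to 29 factors from P18 to P75, 34 to 36 from P75 to 6 months, 11 to 20 from 6 to 24 months and 28 to 38 from P18 to 24 months. The 6 to 24 months count was 12 without replicate 1 of 6 months, 13 without replicate 2 of 6 months, 14 without replicate 1 of 24 months and 11 without replicate 2 of 24 months. In each of these settings fewer of all genes were called up and fewer down as well, as given above. Without P18 replicate 3 the counts against P18 were 29 (P75) and 38 (24 months). The median log2 change of the factors moved with the scale of the libraries: with equal totals it was 0.044 from P18 to P75, -0.069 from 6 to 24 months and -0.13 from P18 to 24 months, and with quantile normalization it was -0.12 from P75 to 6 months and -0.23 from P18 to 24 months. From P75 to 6 months it was -0.056 without a filter on low values and -0.060 with the subunits alone, and from 6 to 24 months -0.069 with the subunits alone. Leaving out single libraries gave medians from -0.093 to -0.074, -0.092 to -0.040, -0.066 to -0.015 and -0.23 to -0.18. The exact permutation p for the Eef1a2 percentage ran from 0.00104 to 0.0797 when single libraries were left out. With the replicate number as a block 26, 35, 20 and 36 factors were called, and the pairing changed only the calls of Eif2s3y (limma adjusted p = 0.125) and Eif3k (limma adjusted p = 0.103) from 6 to 24 months. With 3 libraries per age, losing 1 leaves 2 in its group, and 6 factors were under 100 counts in at least 1 library.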
